A study of Mus musculus with 22 samples.

Results

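The 42 genes described here encode proteins of the synaptic vesicle and of the machinery that docks, fuses and retrieves it. They were chosen by symbol from a list of 19 vesicle genes, 9 SNARE and SNARE regulator genes, 9 active zone genes and 5 endocytosis genes, a list drawn up with earlier results of these data known. Rims1 was deposited as a pair of entries, so the 42 genes gave 43 entries of the 24490 in each table. All 43 passed the filter on low values (averaging 1 FPKM or more, with no estimate marked as failed), which left 12097 entries for testing.

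A nerve terminal stores neurotransmitter in small vesicles that transporters fill. Vesicles are tethered and primed at the active zone by large scaffold proteins, and SNARE proteins on the vesicle and the plasma membrane zip together to fuse them when a synaptotagmin binds calcium. The membrane is then taken back by clathrin-dependent endocytosis and refilled. In cultured cortical neurons most of these terminals release glutamate, and the genes are widely used as signs of neuronal maturation.

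The cells were cortical neurons of C57BL/6 mouse embryos at E16.5, genotype Creb1-/-, used at 7 days in vitro. Creb1 encodes CREB, a transcription factor that is activated by calcium and cyclic AMP. Every culture, controls included, carried that genotype label, was silenced with tetrodotoxin at 1 µM, which blocks sodium channels, plus D-AP5 at 100 µM, which blocks NMDA receptors, received a herpes simplex virus (HSV) and was depolarized for 2 h with 55 mM KCl. The virus carried GFP, wild-type CREB (WT), or CREB in the forms S40A (glycosylation-deficient), S133A (phosphorylation-deficient) or S40A-S133A (both). With 4 h of expression, GFP, WT and S40A had 2 libraries apiece. With 8 h, GFP, WT and S40A had 4 apiece, and S133A and S40A-S133A had 2. No library came from neurons that were not depolarized.

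By the numbers that their files carry and by replicate number, the 22 libraries were assigned to 6 runs. At 4 h, replicate 1 of each group belonged to run A and replicate 2 to run B. At 8 h, replicates 1 to 4 of GFP, WT and S40A belonged to runs C1, C2, D1 and D2, and replicates 1 and 2 of S133A and S40A-S133A to runs D1 and D2. The files of C1 and C2 carry unbroken numbers in order of virus, so these runs were told apart by replicate number alone. No label says that they were separate runs, so any count over the runs at 8 h rests in part on an assumed pairing. Creb1 itself was at 9.69 to 15.9 scaled FPKM in the 6 GFP libraries and at 236 to 2314 in the 16 libraries with a CREB virus. The labels of GFP against a CREB virus therefore held, but a total Creb1 level cannot tell the CREB forms apart, and those labels were not checked. The GFP libraries thus had Creb1 transcript, and a value over the whole gene, which does not separate a deleted part from the rest, is no check of the genotype label. A scaled FPKM is the deposited FPKM (fragments per length of transcript and library size) divided by a factor of 0.867 to 1.10 that puts the median gene of each library on one level. Replicate 2 of GFP at 8 h was unlike the rest: its closest library correlated with it at 0.859, and each of the others had a closest library at 0.916 to 0.943. It shared with run A a set of 167 entries, 37 of them ribosomal protein genes and 0 of them genes of the list described here, that were at least 5-fold higher than in every other library. Xist, an RNA made from the inactive X chromosome of female cells, was at 24.1 to 69.8 in 4 libraries (replicates 1 and 2 of S40A, replicate 2 of GFP and replicate 2 of WT at 8 h) and at most 0.553 in the other 18. The Y-linked gene Eif2s3y was at 0.0547 to 0.229 in replicates 1 and 2 of GFP and of S40A at 8 h, at 2.98 in replicate 2 of WT and at 18.2 to 36.5 in the other 17, and Ddx3y, also Y-linked, was lowest in the same 5. Replicate 1 of GFP at 8 h therefore had little of either, replicate 2 of WT had both, and replicate 1 of WT had the Y-linked genes without Xist. Neuronal transcripts were abundant in each library (Tubb3 at 258 to 481), while some defining genes of microglia (P2ry12, Cx3cr1, Tmem119) and endothelium (Cldn5) stayed under 0.31. Other markers of such cells were present. Fixed lists of 12 markers each summed to 9.75 to 50.6 for microglia and 3.62 to 12.4 for vascular cells and fibroblasts. The sums were 30.3 to 124 for the oligodendrocyte lineage and 96.0 to 896 for astrocytes and radial glia. In bulk RNA, fewer cells of a type and less RNA per cell cannot be told apart.

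Since CREB binds the cyclic AMP response element TGACGTCA, the 250 bases before each gene start were searched for it on both strands (the element reads the same on each). RefSeq promoters of build GRCm38.p6 were held for 34 of the 42 genes. The full element lay before 2 of the 34 genes (5.88%), against 1.77% of all 27025 genes in the promoter table. The shorter TGACG, which the full element also contains, lay on either strand in 10 of 34 (29.4%) against 19.8%. The 2 windows with the full element, in capitals, are shown because they are the members in which the factor supplied by the virus has a textbook motif next to the gene start. Syn1 (synapsin I, which clusters vesicles) has it with its first base 159 bases before the start, at chrX:20920919-20921168 on the minus strand, and Sh3gl2 (endophilin A1, an endocytosis protein) 37 bases before the start, at chr4:85205206-85205455 on the plus strand.
Syn1: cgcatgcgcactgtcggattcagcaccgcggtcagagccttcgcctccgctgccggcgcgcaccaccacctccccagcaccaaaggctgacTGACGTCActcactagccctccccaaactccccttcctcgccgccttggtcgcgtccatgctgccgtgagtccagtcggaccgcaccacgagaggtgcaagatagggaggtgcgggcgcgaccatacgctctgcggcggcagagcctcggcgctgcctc
Sh3gl2: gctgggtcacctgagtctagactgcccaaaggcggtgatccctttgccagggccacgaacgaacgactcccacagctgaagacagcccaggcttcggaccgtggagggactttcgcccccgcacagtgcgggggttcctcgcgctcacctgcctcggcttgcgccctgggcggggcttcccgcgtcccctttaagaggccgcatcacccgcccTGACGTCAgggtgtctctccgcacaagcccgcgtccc
A match is a description of the letters and not evidence of binding. In the comparison of WT with GFP at 8 h, the log2 difference was -0.14 ± 0.18 (SE) for Syn1 and 0.06 ± 0.12 for Sh3gl2, and neither passed the test.

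Mean levels over the 22 libraries ran from 1.61 scaled FPKM for Sv2c to 382 for Vamp2, with a median of 38.5 over the entries. Vesicle genes had a median mean level of 51.8, SNARE genes and regulators 55.0, active zone genes 19.0 and endocytosis genes 67.1. For each entry the highest library was 1.35 to 6.46 times the lowest. The median of that ratio was 1.91, against 2.11 over all entries tested. It was 2.28 for vesicle genes, 1.87 for the SNARE group, 1.68 for the active zone and 1.51 for endocytosis, so by these medians the active zone and endocytosis groups varied least. The lowest library of an entry lay in run A for 19 entries and in run C2 for 12, and the highest in run B for 13 and in run D1 for 11. The median half-width of the deposited 95% interval was 3.87% of the value, and it was widest for Sv2c (18.5%), Vamp1 (12.5%), Slc17a6 (9.69%) and Sv2b (9.59%).

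**Figure D1:**
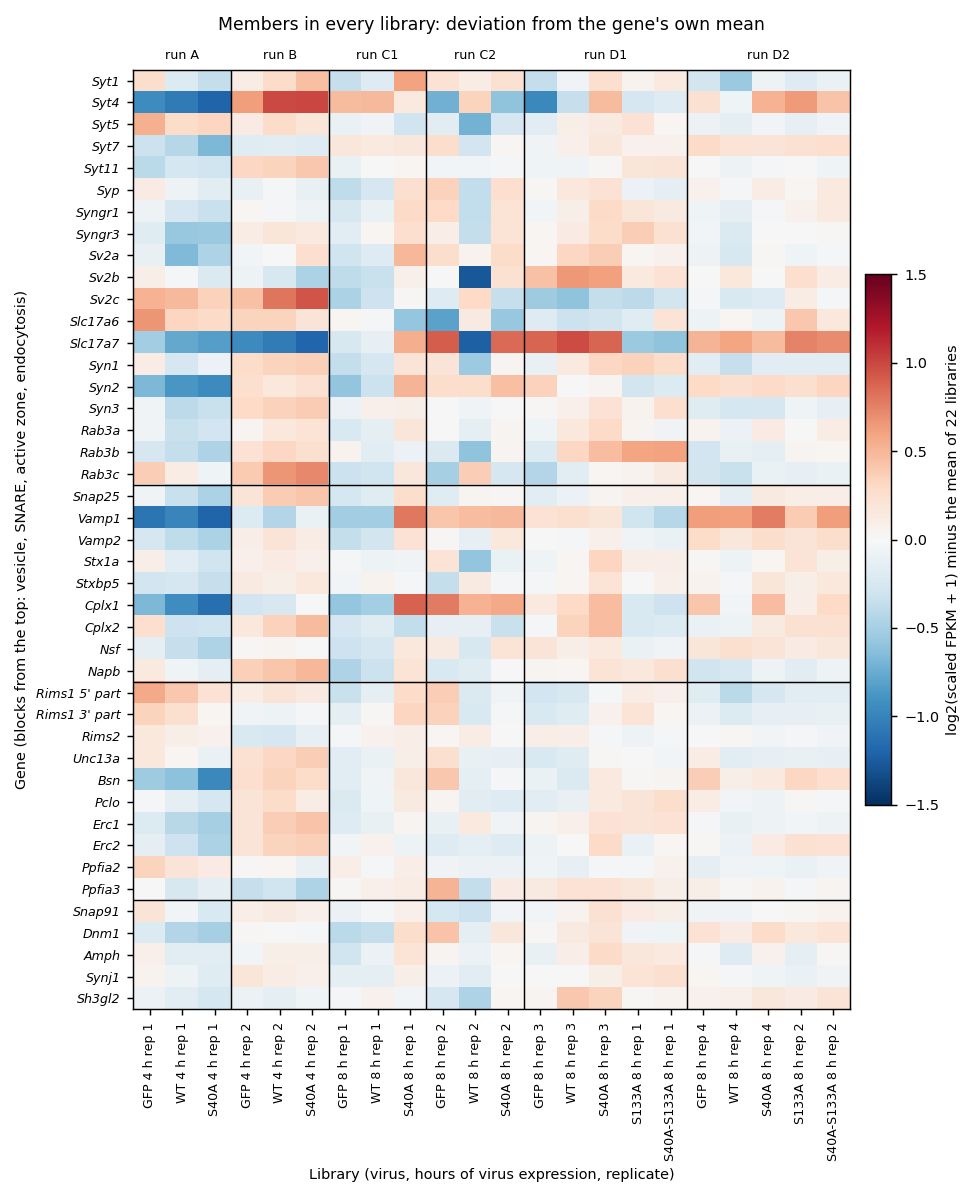
Deviation of each of the 43 entries (rows, by block) in each of the 22 libraries (columns, by run) from the entry's own mean, as log2(scaled FPKM + 1), with red above and blue below. Run A is blue over most vesicle and SNARE rows, and Syt4, Slc17a7, Vamp1, Cplx1 and Syn2 hold the strongest colours, while most active zone and endocytosis rows stay pale.

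Synaptotagmins are vesicle proteins, of which Syt1 and Syt7 are calcium sensors of release, while Syt4 and Syt11 are not regarded as such. Syt1 (chromosome 10, 108497650 to 109010975, mm10), the sensor of fast release, was at 65.4 and 59.0 in replicates 1 and 2 of GFP at 4 h, 47.1 and 66.1 in WT and 42.3 and 74.6 in S40A. At 8 h, Syt1 was at 42.7, 63.4, 42.4 and 44.6 in replicates 1 to 4 of GFP, 47.5, 58.7, 52.6 and 36.6 in WT, 83.3, 63.8, 65.1 and 51.7 in S40A, 56.5 and 47.3 in S133A, and 60.4 and 50.6 in S40A-S133A. S40A was above WT in each run at 8 h, but its replicate 4 lay inside the range of WT. The log2 difference of Syt1 was 0.43 ± 0.15 (SE) for S40A against WT, with an unadjusted p of 0.017 and an adjusted p of 1 (limma). Of the other synaptotagmins, Syt11 was the steadiest at 8 h (77.0 to 94.5), Syt5 ran from 39.8 to 95.3 and Syt7, a slow sensor, from 20.8 to 41.3. Syt4, whose gene is known to be induced by neuronal activity, varied by 4.69-fold, from 59.4 to 279, and its extremes were both S40A libraries at 4 h, in runs A and B.

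The membrane proteins of the vesicle were led by Syp (synaptophysin, the most used vesicle marker; chromosome X, 7638580 to 7653256). At 4 h Syp was at 228 and 194 in GFP, 199 and 206 in WT, and 188 and 195 in S40A. At 8 h Syp was at 160.2, 266, 212 and 219 in GFP, 175, 162, 234 and 207 in WT, 249, 250.3, 244 and 226 in S40A, 197 and 214 in S133A, and 191 and 232 in S40A-S133A. The 4 S40A libraries at 8 h lay close together and high, and replicate 3 of WT fell among them. The difference between S40A and WT was 0.33 ± 0.15 on the log2 scale (unadjusted p = 0.045, adjusted p = 1, limma). Of the synaptogyrins, Syngr1 ran from 34.3 to 55.5 and Syngr3 from 53.9 to 105. The 3 SV2 proteins differed in level, with Sv2a at a mean of 51.8, Sv2b at 4.47 and Sv2c at 1.61, and FPKM values allow that comparison because they are per length. Sv2b fell to 1.19 in replicate 2 of WT at 8 h and was highest, at 7.31, in replicate 3 of the same group.

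Vesicular glutamate transporters fill the vesicle, and the pair of them on the list ran in opposite directions between 4 h and 8 h libraries. Slc17a7 (VGLUT1, the transporter of most mature cortical excitatory neurons; chromosome 7, 45163921 to 45176139) was at 31.3 and 23.1 in GFP at 4 h, 26.3 and 21.5 in WT and 25.2 and 19.5 in S40A. At 8 h Slc17a7 was at 38.5, 86.1, 84.0 and 65.1 in GFP, 41.7, 18.9, 90.6 and 69.3 in WT, 66.7, 83.0, 84.1 and 63.7 in S40A, 30.5 and 77.0 in S133A, and 29.7 and 75.2 in S40A-S133A. All 8 h libraries except replicate 2 of WT and the run D1 libraries of S133A and S40A-S133A lay above the highest 4 h library. Within run D1 the same gene was at 84.0, 90.6 and 84.1 with GFP, WT and S40A but at 30.5 and 29.7 with S133A and S40A-S133A, while in run D2 all 5 libraries were between 63.7 and 77.0. The difference seen in run D1 was therefore not repeated in run D2, and the test gave -0.72 ± 0.56 for S133A and -0.76 ± 0.56 for S40A-S133A against GFP, with adjusted p of 1 and 0.97 (limma).

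Slc17a6 (VGLUT2, the transporter of subcortical and immature cortical neurons; chromosome 7, 51621830 to 51671126) was at 9.10 and 7.10 in GFP at 4 h, 7.02 and 7.03 in WT, and 6.84 and 6.30 in S40A. At 8 h Slc17a6 was at 5.53, 2.67, 4.60 and 5.09 in GFP, 5.24, 6.01, 4.10 and 5.55 in WT, 3.28, 3.31, 4.29 and 5.07 in S40A, 4.65 and 7.49 in S133A, and 6.40 and 6.16 in S40A-S133A. The 12 libraries of GFP, WT and S40A at 8 h all lay below the 6 libraries at 4 h. The ratio of Slc17a7 to Slc17a6 was 3.06 to 3.75 in the 6 libraries at 4 h. It was 3.14 in replicate 2 of WT at 8 h and reached 32.3 in replicate 2 of GFP at 8 h, the library that stood apart. That WT library also held 102.8 scaled FPKM of Gad1, the GABA-synthesizing enzyme, against 35.1 to 73.6 in the other 8 h libraries. The part of its inhibitory neuron content in the ratio was not tested.

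**Figure D2:**
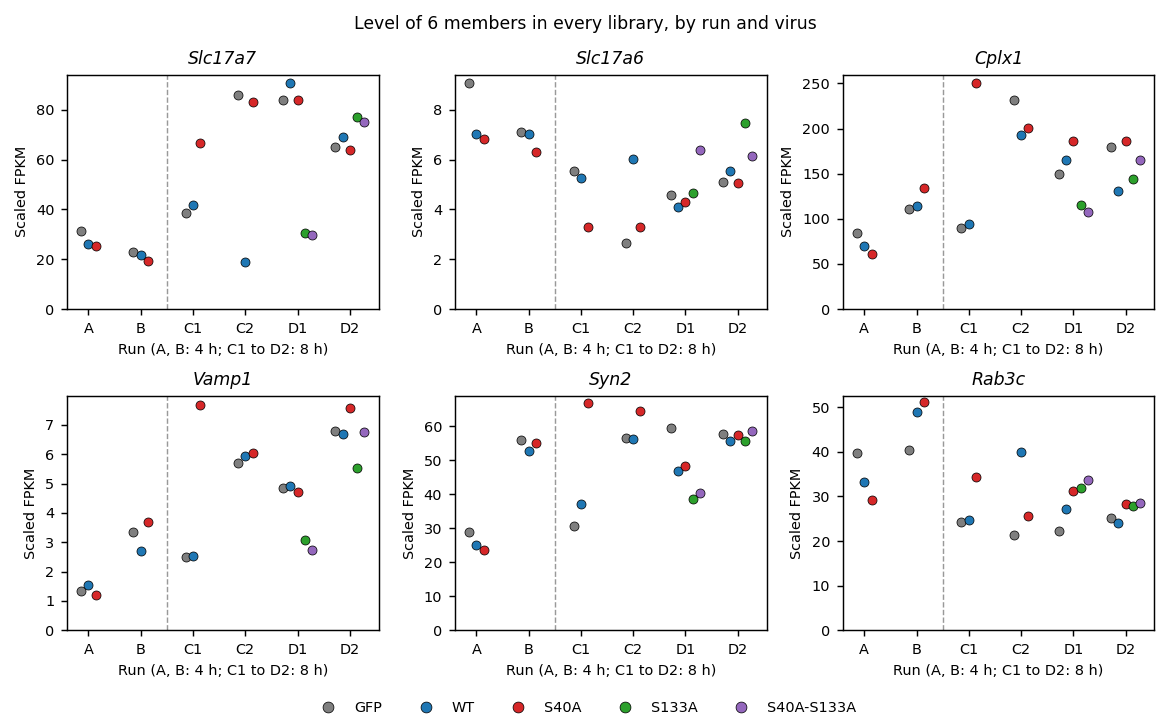
Scaled FPKM of 6 members in each library (points, coloured by virus), by run on the horizontal axis, with 4 h runs left of the dashed line. Slc17a7 and Vamp1 are lower and Slc17a6 and Rab3c higher in most 4 h libraries, and Syn2, Vamp1 and Cplx1 are lower in run A than in run B.

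Synapsins coat the vesicle and hold the reserve pool. Syn1 (chromosome X, 20860511 to 20920918) was at 67.3 and 75.9 in GFP at 4 h, 52.3 and 79.2 in WT, and 58.9 and 80.4 in S40A. At 8 h Syn1 was at 48.6, 71.7, 57.7 and 56.0 in GFP, 52.1, 42.4, 69.3 and 48.8 in WT, 71.6, 64.2, 77.4 and 55.9 in S40A, 79.4 and 55.9 in S133A, and 75.6 and 56.0 in S40A-S133A. In run B the 3 libraries exceeded the 3 of run A, and at 8 h the groups overlapped. Syn2 ran from 23.7 to 66.9 and Syn3 from 9.43 to 16.9, and each had its lowest value in run A. Introns of the synapsin genes hold genes on the opposite strand, and strand handling is not stated, so a share of such reads cannot be told apart.

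The Rab3 proteins are GTPases that tether vesicles to the active zone. Rab3a (chromosome 8, 70754679 to 70758686) was at 179 and 191 in GFP at 4 h, 147 and 208 in WT, and 153 and 214 in S40A. At 8 h Rab3a was at 158, 186, 177 and 194 in GFP, 169, 168, 208 and 175 in WT, 211, 192, 227 and 204 in S40A, 192 and 188 in S133A, and 179.7 and 201 in S40A-S133A. S40A was above WT in each of the 4 runs at 8 h, by 0.21 ± 0.08 on the log2 scale (unadjusted p = 0.019, adjusted p = 1, limma), and replicate 3 of WT lay above 2 of the S40A libraries. Rab3b ran from 12.0 to 29.2. Rab3c, at 21.4 to 25.2 in GFP at 8 h, was at 25.5 to 34.4 in S40A at 8 h with no overlap, and at 29.1 to 51.1 in the 4 h libraries.

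The SNARE proteins themselves include the most abundant transcript of the list. Vamp2 (synaptobrevin 2, the vesicle SNARE; chromosome 11, 69088528 to 69092381) was at 318 and 404 in GFP at 4 h, 289.8 and 431 in WT, and 271 and 409 in S40A. At 8 h Vamp2 was at 294, 383, 377 and 459 in GFP, 311, 348, 373 and 425 in WT, 440.4, 423, 398 and 455 in S40A, 364 and 432 in S133A, and 352 and 454 in S40A-S133A. The lowest values of all were those of S40A and WT in run A, and at 8 h the groups overlapped. Vamp1, the related vesicle SNARE of spinal and brainstem neurons, was at a mean of 4.45. It had the widest range of the list (1.19 to 7.67), and the ratio of Vamp2 to Vamp1 was 111 to 237 in the 4 h libraries and 57.4 to 128 in the 8 h libraries.

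Snap25 (chromosome 2, 136713450 to 136782428), a SNARE of the plasma membrane, was at 139.7 and 165 in GFP at 4 h, 115 and 189 in WT, and 104 and 193 in S40A. At 8 h Snap25 was at 119.8, 127, 129.8 and 147 in GFP, 127, 149, 136 and 131 in WT, 173, 146, 149 and 159 in S40A, 152 and 155 in S133A, and 152 and 155 in S40A-S133A. Each S133A and S40A-S133A library lay above all GFP and WT libraries at 8 h, while S40A overlapped both groups. The difference between S40A and GFP was 0.26 ± 0.08 on the log2 scale, the smallest unadjusted p of any member against GFP (0.0065), with an adjusted p of 0.77 (limma).

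Stx1a (syntaxin 1A, its partner in the plasma membrane; chromosome 5, 135023572 to 135051099) was at 58.5 and 57.5 in GFP at 4 h, 48.6 and 59.4 in WT, and 44.3 and 57.4 in S40A. At 8 h Stx1a was at 53.3, 63.1, 52.2 and 55.2 in GFP, 51.9, 35.8, 55.6 and 51.9 in WT, 52.5, 50.8, 68.5 and 55.5 in S40A, 58.5 and 62.9 in S133A, and 58.4 and 58.0 in S40A-S133A. Replicate 2 of WT at 8 h was the lowest library for Stx1a, and it was the lowest of the 22 for 9 members in all.

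Among the regulators, complexins clamp and promote fusion, Nsf and Napb (β-SNAP) take spent SNARE complexes apart, and Stxbp5 (tomosyn) restrains their assembly. Cplx2 (chromosome 13, 54371349 to 54383917) was at 45.3 and 42.3 in GFP at 4 h, 30.4 and 48.5 in WT, and 30.6 and 53.1 in S40A. At 8 h Cplx2 was at 31.7, 34.7, 37.0 and 35.2 in GFP, 33.2, 34.8, 47.8 and 35.9 in WT, 29.2, 29.9, 52.4 and 41.5 in S40A, 32.2 and 44.4 in S133A, and 32.6 and 44.6 in S40A-S133A. For GFP, WT and S40A at 8 h each library of the later set (runs D1 and D2) exceeded each library of its group in the earlier set (runs C1 and C2). Cplx1 moved otherwise, from 61.2 in run A to 250.4 in replicate 1 of S40A at 8 h.

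Nsf (chromosome 11, 103821783 to 103954056) was at 62.7 and 69.7 in GFP at 4 h, 53.9 and 70.7 in WT, and 49.9 and 68.8 in S40A. At 8 h Nsf was at 55.2, 75.6, 79.0 and 78.4 in GFP, 57.9, 58.4, 73.4 and 81.8 in WT, 77.3, 79.6, 76.4 and 79.0 in S40A, 64.0 and 75.2 in S133A, and 66.5 and 77.8 in S40A-S133A. The S40A libraries were within 76.4 to 79.6, while GFP spread from 55.2 to 79.0 and WT from 57.9 to 81.8. Napb ran from 29.5 to 58.3 and Stxbp5 from 12.1 to 18.3.

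By their medians, active zone genes had lower levels than the vesicle genes and varied less. Single genes departed from this: Sv2c, Sv2b and Slc17a6 had mean levels below that of Rims2, the lowest active zone entry at 7.06, and Bsn varied by 2.80-fold. Bsn (bassoon; chromosome 9, 108096022 to 108190383) was at 10.6 and 19.1 in GFP at 4 h, 10.0 and 20.1 in WT, and 7.61 and 19.3 in S40A. At 8 h Bsn was at 13.9, 21.3, 14.7 and 20.8 in GFP, 15.2, 14.4, 13.4 and 16.9 in WT, 18.0, 15.5, 17.6 and 17.6 in S40A, 16.0 and 19.8 in S133A, and 16.3 and 19.1 in S40A-S133A. Each run A library lay below every other library. Pclo (piccolo, its relative; chromosome 5, 14514918 to 14863459) was at 11.4 and 13.5 in GFP at 4 h, 10.6 and 14.4 in WT, and 9.65 and 12.7 in S40A. At 8 h Pclo was at 9.91, 12.1, 10.3 and 12.7 in GFP, 11.2, 10.3, 10.8 and 11.4 in WT, 13.0, 10.1, 13.1 and 11.0 in S40A, 13.5 and 11.9 in S133A, and 14.3 and 11.6 in S40A-S133A. Run A was again below run B, but by less than for Bsn.

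Rims1, which links Rab3 to the release site, was split into entries for the 5′ part (chromosome 1, 22468191 to 22805724) and the 3′ part (22288422 to 22432843) of the gene. The 5′ part was at 25.3 and 18.1 in GFP at 4 h, 22.5 and 19.2 in WT, and 19.6 and 18.4 in S40A. At 8 h the 5′ part was at 13.1, 21.9, 13.5 and 14.6 in GFP, 15.1, 14.3, 14.0 and 12.4 in WT, 20.5, 16.1, 16.504 and 13.9 in S40A, 18.1 and 14.7 in S133A, and 17.7 and 14.9 in S40A-S133A. Here run A lay above run B, opposite to Bsn, and replicate 2 of GFP was the highest 8 h library. The 3′ part of Rims1 was at 26.4 and 20.0 in GFP at 4 h, 24.8 and 19.7 in WT, and 21.3 and 20.5 in S40A. At 8 h the 3′ part was at 18.8, 26.7, 17.6 and 19.5 in GFP, 21.0, 17.6, 18.2 and 17.9 in WT, 26.2, 20.4, 21.7 and 19.0 in S40A, 24.1 and 19.1 in S133A, and 21.3 and 19.1 in S40A-S133A. In both parts run A lay above run B, and replicate 2 of GFP and replicate 1 of S40A were the highest 8 h libraries.

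Unc13a (Munc13-1, which primes vesicles; chromosome 8, 71626712 to 71671757) was at 36.5 and 38.3 in GFP at 4 h, 33.3 and 40.6 in WT, and 30.4 and 42.5 in S40A. At 8 h Unc13a was at 29.0, 38.7, 27.6 and 35.3 in GFP, 30.4, 30.2, 28.6 and 29.2 in WT, 34.7, 29.9, 33.0 and 29.8 in S40A, 32.9 and 30.0 in S133A, and 31.6 and 29.8 in S40A-S133A. The WT libraries were within 28.6 to 30.4, inside the wider range of GFP. Of the other scaffolds, Rims2 ran from 5.75 to 7.97, Ppfia2 (liprin-α2) from 26.3 to 36.8, Ppfia3 from 20.9 to 41.97, Erc1 from 10.2 to 20.2 and Erc2 from 16.6 to 30.2. Both Erc genes, which encode ELKS scaffolds, had their lowest value in run A and their highest in run B.

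Endocytosis genes retrieve the vesicle membrane. Dnm1 (dynamin 1, the GTPase that pinches the vesicle off; chromosome 2, 32308471 to 32353304) was at 69.6 and 81.4 in GFP at 4 h, 59.3 and 80.0 in WT, and 56.9 and 79.3 in S40A. At 8 h Dnm1 was at 60.7, 109, 81.7 and 93.9 in GFP, 63.0, 72.5, 88.4 and 87.9 in WT, 97.3, 91.2, 92.4 and 97.7 in S40A, 77.5 and 90.2 in S133A, and 76.8 and 93.5 in S40A-S133A. All 4 S40A libraries lay above all 4 WT libraries at 8 h, with GFP overlapping both. Amph (amphiphysin, which recruits dynamin; chromosome 13, 18948351 to 19150919) was at 70.7 and 65.1 in GFP at 4 h, 59.8 and 70.9 in WT, and 59.7 and 71.1 in S40A. At 8 h Amph was at 54.1, 68.7, 61.7 and 66.1 in GFP, 62.6, 63.0, 71.5 and 58.2 in WT, 77.3, 68.4, 81.6 and 69.7 in S40A, 75.3 and 60.3 in S133A, and 73.9 and 67.4 in S40A-S133A. Replicates 1 and 3 of S40A were above every GFP and WT library, and the other 2 overlapped them. Snap91 (AP180, a clathrin adaptor) ran from 80.7 to 119, Synj1 (synaptojanin 1, a lipid phosphatase) from 28.5 to 38.5, the narrowest range of the list, and Sh3gl2 from 24.4 to 45.4.

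Glycosylation-deficient and wild-type CREB were compared at 8 h, 4 libraries each. No entry of the list was called at an adjusted p under 0.05 (0 of 43), and the background was 0% of all 12097 entries (limma, all 16 libraries at 8 h fitted together, library set included). At an unadjusted p under 0.05 there were 6 members, against 4.25% of all entries, and each was higher with S40A. They were Syt1, Rab3a, Syngr1 (0.32 ± 0.12, unadjusted p = 0.024), Snap25 (0.20 ± 0.08, unadjusted p = 0.024), Syngr3 (0.29 ± 0.12, unadjusted p = 0.036) and Syp, all with an adjusted p of 1. The difference was above 0 for 39 of 43 entries, against 49.4% of all entries. The median was 0.20 on the log2 scale, with 0.21 for vesicle genes, 0.23 for the SNARE group, 0.10 for the active zone and 0.15 for endocytosis, and 0 for all entries. Per library, the median deviation of the members from their own means was 0.16, 0.004, 0.21 and 0.006 in replicates 1 to 4 of S40A. In WT it was -0.11, -0.14, 0.07 and -0.07, so replicate 3 of WT lay above replicates 2 and 4 of S40A. The members below 0 with the smallest p were Slc17a6 (-0.33 ± 0.19), Rims2 (-0.06 ± 0.06) and Cplx2 (-0.02 ± 0.15), and only Cplx2 turned positive in the later set alone (0.17).

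Within runs, the median difference between S40A and WT was 0.23 in C1, 0.18 in C2, 0.14 in D1 and 0.10 in D2, with 36, 31, 37 and 33 of 43 entries above 0. There were 20 entries above 0 in all 4 runs, against 9.54% of all entries, where the pairs of C1 and C2 rest on replicate number alone. Of the list only Dnm1 had groups that did not overlap, against a background of 2.77%. In the earlier set the S40A libraries were both Xist-positive and only replicate 2 of WT was. The later set, with no Xist-positive library, gave 39 of 43 above 0, a median of 0.11 and 2 members at an unadjusted p under 0.05, a setting chosen after the data were seen. Replicate 1 of S40A weighed most on the p-values, since without it 0 members had an unadjusted p under 0.05 while 40 stayed above 0 with a median of 0.15. Leaving out other single libraries gave 2 to 12 such members, the 12 without replicate 3 of WT or replicate 4 of S40A. The share of all entries was not computed for the later set alone or with a library left out. Those counts therefore cannot be read as particular to the members. Without scaling 2 members, Snap25 and Syt1, had an unadjusted p under 0.05 (3.12% of all entries), and with run as a block 11 did (7.42%).

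**Figure D3:**
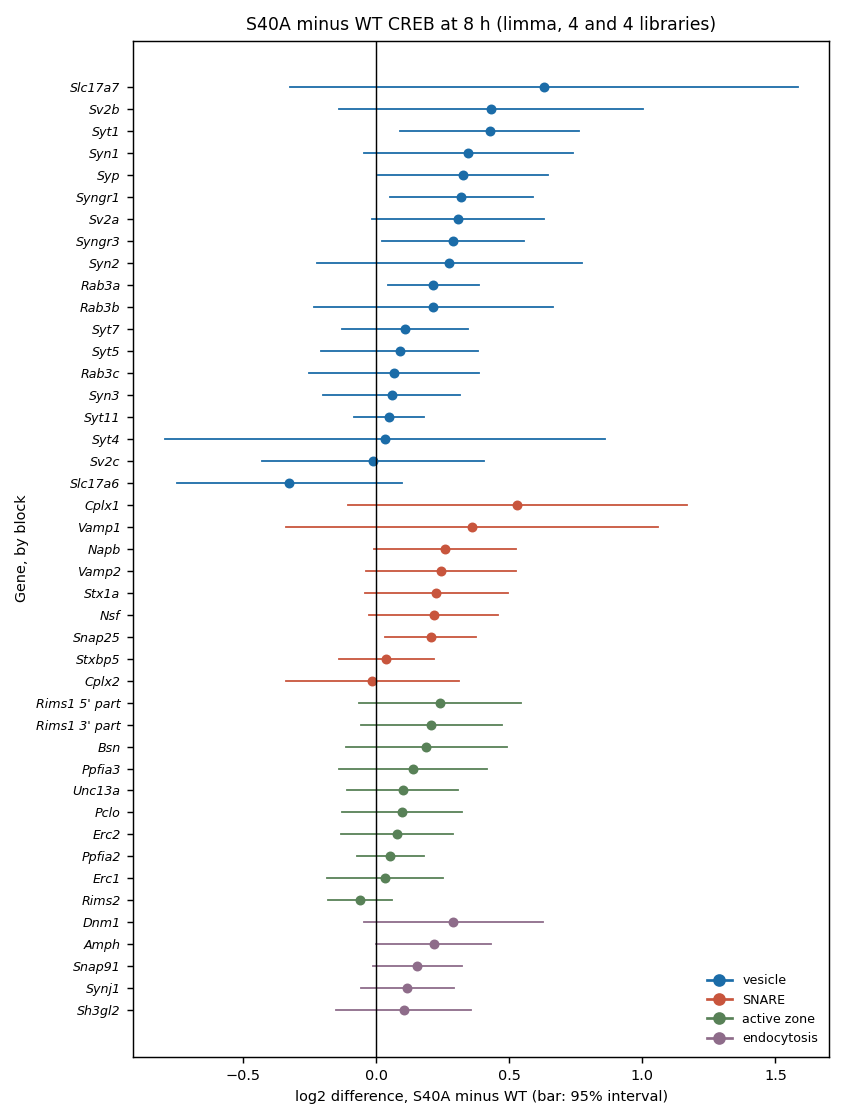
Log2 difference between S40A and WT at 8 h for the 43 entries, by block and in order of size, with its 95% interval from limma. Points lie right of 0 for 39 of 43 entries, and the intervals of all but 6 reach 0.

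Among genes of related function, fixed as lists, the other presynaptic genes were above 0 in the same comparison for 46 of 65 tested, with a median of 0.07, and 16 were above 0 in all 4 runs. Of them 7 were higher and 2 lower at an unadjusted p under 0.05, and 0 were called. The postsynaptic density genes were above 0 for 20 of 24 (11 in all 4 runs), and the neuron structure genes for 8 of 15. Astrocyte and radial glia markers were above 0 for 3 of 11, with summed levels of 96.0 to 247 in S40A and 129 to 256 in WT. Inhibitory neuron markers were above 0 for 8 of 11, with sums of 507 to 698 in S40A and 395 to 848 in WT. The 4 tested microglia markers were all below 0, with sums of 9.75 to 16.1 in S40A and 11.8 to 50.6 in WT. Their part in the difference was not tested.

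S40A was also compared with GFP at 8 h. Again 0 of 43 were called, against 0.00827% of all entries (limma), and 7 members had an unadjusted p under 0.05, against 5.93%. They were Snap25, Syt1 (0.44 ± 0.15), Rab3a (0.22 ± 0.08), Napb (0.32 ± 0.12), Amph (0.24 ± 0.10), Snap91 (0.18 ± 0.08) and Rab3c (0.34 ± 0.15), all higher with S40A and with adjusted p of 0.77 to 0.83. Without scaling only Snap25 had such a p (5.12% of all entries). Leaving out 1 library gave 2 (without replicate 1 of S40A) to 9 members (without replicate 2 of GFP), with the share of all entries not computed. Rab3c was the 1 member whose groups did not overlap, against a background of 3.18%. Differences were above 0 for 37 of 43 (49.5% of all entries), with a median of 0.16, and the medians within runs C1, C2, D1 and D2 were 0.41, 0.01, 0.24 and 0.05. Without replicate 2 of GFP, the library that stood apart, 41 were above 0 with a median of 0.20, and without replicate 1 of GFP 36 were, with a median of 0.07. Among the 6 members below 0, Slc17a6 (-0.12 ± 0.19), Ppfia3 (-0.06 ± 0.13) and Rims2 (-0.02 ± 0.06) had the smallest p.

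For WT against GFP at 8 h, the comparison of added wild-type CREB with the control virus in depolarized neurons, 0 of 43 were called against 0.00827% of all entries (limma), and 0 had an unadjusted p under 0.05 against 1.07%. Differences were above 0 for 21 of 43 (49% of all entries), with a median of -0.03, and 0 had groups that did not overlap (0.504%). The smallest p values above 0 belonged to Rab3c (0.27 ± 0.15), Stxbp5 (0.14 ± 0.08) and Slc17a6 (0.21 ± 0.19), and below 0 to Stx1a (-0.21 ± 0.12), Ppfia3 (-0.20 ± 0.13) and Bsn (-0.21 ± 0.14). The medians within runs C1, C2, D1 and D2 were 0.08, -0.15, 0.09 and -0.08, so even their sign differed between runs. In run C2 the pair compared held both libraries named above, replicate 2 of GFP and replicate 2 of WT. Without that GFP library 27 of 43 were above 0 with a median of 0.02, without replicate 1 of GFP 14 were, with a median of -0.08, and without scaling 12 were, with a median of -0.06.

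**Figure D4:**
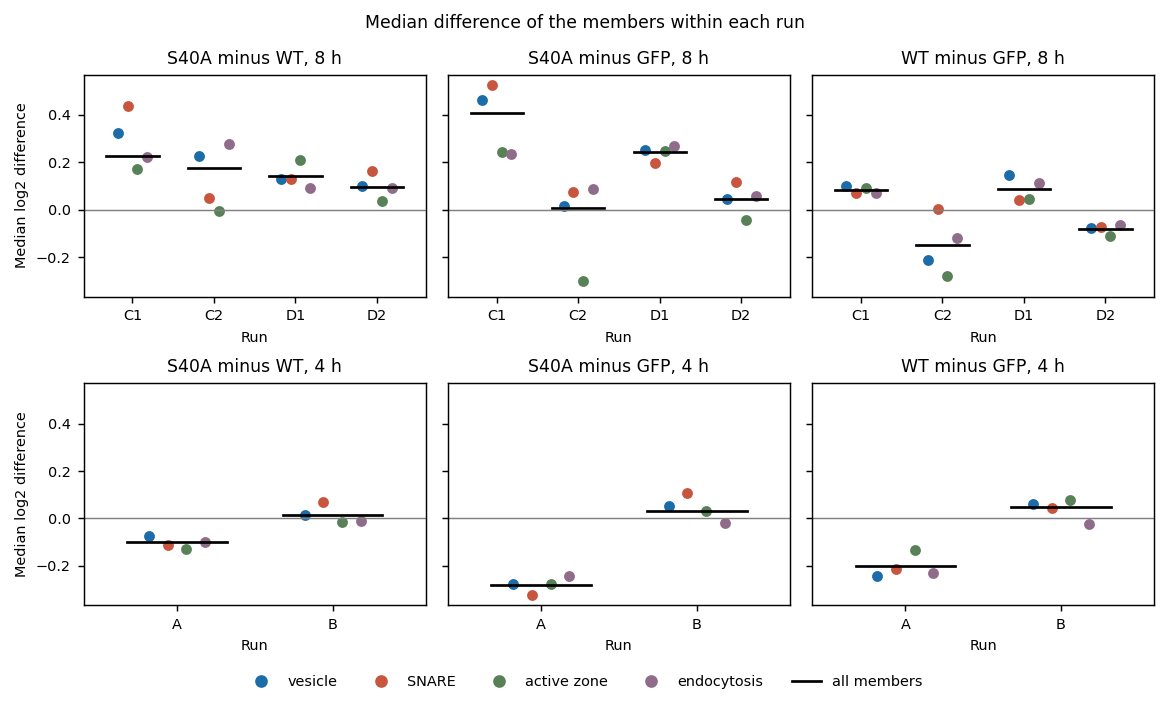
Median log2 difference of the members within each run for 6 comparisons, for each block (coloured points) and for all members (black bars). The bars for S40A against WT at 8 h lie at 0.23, 0.18, 0.14 and 0.10, whereas those for WT against GFP lie on both sides of 0, at 8 h and at 4 h.

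The phosphorylation-deficient forms were measured in the later set only, with 2 libraries each. Against GFP, 0 of 43 were called for S133A (background 0.0248%) and 0 for S40A-S133A (0.0165%), with 0 and 1 members at an unadjusted p under 0.05 (limma; 2.51% and 3.73% of all entries). The 1 member was Rab3c with S40A-S133A, at 0.44 ± 0.19 (unadjusted p = 0.039, adjusted p = 0.97), and the value with S133A was 0.38 ± 0.19. Snap25 stood at 0.22 ± 0.10 with either form. Groups did not overlap for 4 members with S133A (Rab3c, Snap25, Syt11 and Snap91, against 8.18% of all entries) and for 8 with S40A-S133A (against 9.36%). Differences were above 0 for 28 of 43 with S133A (50% of all entries) and 29 with S40A-S133A (49.8%), with medians of 0.07 and 0.08. Below 0, Slc17a7 had the largest differences, followed in order of p by Nsf (-0.15 ± 0.14) and Ppfia3 (-0.13 ± 0.16) with S133A, and by Ppfia3 (-0.15 ± 0.16) and Rims2 (-0.05 ± 0.07) with S40A-S133A.

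Against WT, 0 of 43 were called with S133A (0.0165% of all entries) and 0 with S40A-S133A (0.00827%), and 0 members had an unadjusted p under 0.05 in either (limma; 1.49% and 1.74%). The 3 smallest p values with S133A were those of the 3′ part of Rims1 (0.28 ± 0.16), its 5′ part (0.32 ± 0.18) and Syngr3 (0.28 ± 0.16). With S40A-S133A they were the 5′ part of Rims1 (0.32 ± 0.18), Syngr1 (0.27 ± 0.16) and Syt1 (0.33 ± 0.20). On the other side, Rims2 was at -0.10 ± 0.07 and -0.09 ± 0.07 and its libraries did not overlap with those of WT. Groups did not overlap for 5 members with S133A (6.27% of all entries) and 7 with S40A-S133A (6.39%), Snap25, Pclo and Stx1a being higher and Rims2 lower in both. Cplx2 (-0.16 ± 0.19 and -0.15 ± 0.19) and Vamp1 (-0.29 ± 0.41 and -0.23 ± 0.41) came next, both with runs D1 and D2 far apart. Differences were above 0 for 34 of 43 with S133A (51.4% of all entries) and 35 with S40A-S133A (51.2%), with medians of 0.09 in both. The 2 comparisons share their WT libraries.

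At 4 h, with 2 libraries a group, 0 of 43 were called for WT against GFP (0.0992% of all entries), S40A against GFP (0.0909%) and S40A against WT (0.0909%). In each, 0 members had an unadjusted p under 0.05 (limma; 0.314%, 0.488% and 0.314% of all entries). These tests leave the run out, although libraries of one run deviated together, with correlations of 0.546 to 0.563 between the viruses. With run as a block 0 members were called, and Slc17a7 (-0.27 ± 0.07, unadjusted p = 0.018) and Sv2b (-0.35 ± 0.09, unadjusted p = 0.019) passed an unadjusted p under 0.05 for S40A against GFP (limma, adjusted p = 1; 2.99% of all entries). The members were mostly below 0 in the mean, with 5 of 43 above 0 for WT against GFP (median -0.06), 5 for S40A against GFP (median -0.10) and 11 for S40A against WT (median -0.04), where all entries were above 0 for 50.1%, 49.3% and 47.4%. The pattern was in run A. There, 3, 1 and 8 of 43 were above 0, with medians of -0.20, -0.28 and -0.10, whereas in run B 31, 29 and 23 were above 0, with medians of 0.05, 0.03 and 0.02. Without scaling, 20 and not 11 members were above 0 for S40A against WT. Groups that did not overlap were those of Slc17a6 and Sh3gl2 (WT below GFP), of Sv2b, Slc17a6, Snap91 and Stx1a (S40A below GFP), and of Syp and Slc17a6 (S40A below WT), against backgrounds of 9.17%, 9.47% and 9.13%.

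The smallest p values at 4 h were far from the threshold. For WT against GFP they belonged to Sv2c (0.17 ± 0.26), Syt11 (0.08 ± 0.41) and Syt4 (0.12 ± 1.16) above 0 and to Slc17a6 (-0.17 ± 0.18), Slc17a7 (-0.17 ± 0.23) and Sv2a (-0.25 ± 0.35) below. For S40A against GFP they were Sv2c (0.17 ± 0.26), Syt11 (0.10 ± 0.41) and Syt4 (0.06 ± 1.16) above and Sv2b (-0.35 ± 0.18), Slc17a6 (-0.26 ± 0.18) and Snap91 (-0.22 ± 0.16) below. For S40A against WT they were Sv2a (0.22 ± 0.35), Syn1 (0.09 ± 0.27) and Rims2 (0.05 ± 0.23) above and Sv2b (-0.22 ± 0.18), Snap91 (-0.12 ± 0.16) and Pclo (-0.15 ± 0.23) below. The standard error of 1.16 for Syt4 shows how far the 2 runs lay apart within each group, and it was 0.19 with run as a block.

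The test of whether the difference between S40A and WT itself differed between 8 h and 4 h called 0 of 43 (0.0248% of all entries), and 0 had an unadjusted p under 0.05 (limma on the 22 libraries; 0.885%). The difference was larger at 8 h for 39 of 43 (50.5% of all entries), with a median of 0.24, and nearest the threshold were Syngr1 (0.39 ± 0.21), Snap91 (0.27 ± 0.15) and Syp (0.41 ± 0.24), with Slc17a6 (-0.24 ± 0.31), Rims2 (-0.11 ± 0.16) and Cplx2 (-0.08 ± 0.33) on the other side. Without replicate 1 of S40A at 4 h the count fell to 20 of 43 and the median to -0.01. The same test for WT against GFP called 0 of 43 (0.0165%), with 0 at an unadjusted p under 0.05 (0.562%), 25 above 0 (48.1%) and a median of 0.03. Its smallest p values were those of Slc17a6 (0.38 ± 0.31), Cplx2 (0.30 ± 0.33) and Rab3c (0.27 ± 0.31) above 0, and Unc13a (-0.10 ± 0.20), Bsn (-0.21 ± 0.44) and Stx1a (-0.10 ± 0.22) below.

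Later and earlier 8 h libraries were set against each other within virus. No member was called (0 of 43, against 0.0661% of all entries), and 5 had an unadjusted p under 0.05 (limma; 9.07%). Sh3gl2 (0.29 ± 0.09), Cplx2 (0.35 ± 0.12), Sv2b (0.59 ± 0.21) and Nsf (0.23 ± 0.09) were higher in the later set, and Syt1 was lower (-0.28 ± 0.13), followed by the 5′ part (-0.22 ± 0.11) and the 3′ part (-0.18 ± 0.10) of Rims1. The adjusted p of these 5 members was 0.36 to 0.54. Among the GFP, WT and S40A libraries, Cplx2 was the 1 member without overlap between the sets, against 1.41% of all entries. Cplx2 in S133A and S40A-S133A of run D1, at 32.2 and 32.6, lay inside the range of the earlier set. In the later set 32 of 43 were higher (49.8%).

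The clearest differences of the list were between runs A and B at 4 h, across GFP, WT and S40A. There 22 of 43 entries were called, 20 of them higher in run B and 2 lower, against a background of 41.1% of all entries, 20.1% higher and 21% lower (limma, the 6 libraries with terms for virus and run). At an unadjusted p under 0.05 there were 28 (53.9%), and 33 were above 0 (48.5%). Syt4 was at 71.5, 65.7 and 59.4 in run A (GFP, WT and S40A) and at 213, 276 and 279 in run B. Syn2 was at 28.9, 25.0 and 23.7 in run A and at 55.9, 52.6 and 55.1 in run B. Bsn, Syt4 and Syn2 thus had runs that lay wholly apart. The log2 differences were 1.94 ± 0.15 for Syt4 (adjusted p = 0.0075), 1.05 ± 0.07 for Syn2 (adjusted p = 0.0055), 0.99 ± 0.11 for Bsn (adjusted p = 0.012) and 0.67 ± 0.05 for Syt11 (adjusted p = 0.0068). Next in order of p came Rab3b (0.61 ± 0.07), Stxbp5 (0.42 ± 0.06), Slc17a7 (-0.35 ± 0.05), Vamp1 (0.85 ± 0.13), Erc1 (0.71 ± 0.13) and Syn3 (0.60 ± 0.11), with adjusted p of 0.013 to 0.027.

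By block, 7 vesicle genes, 7 SNARE group genes, 4 active zone genes and 2 endocytosis genes rose in run B. Those that fell were Slc17a7 and Ppfia2 (-0.24 ± 0.05, adjusted p = 0.039). Runs did not overlap for 32 of 43 entries, against 64.1% of all entries, and for all 10 active zone entries, 5 higher and 5 lower in run B. The difference was above 0 for 9 of 9 entries of the SNARE group, and for 8 of 9 without the scaling between libraries, where 1 was called higher. Other blocks depended more on scaling. Without it 1 of 5 endocytosis entries was above 0 and not 5. The active zone median was -0.25 and not 0.02, with 1 entry called higher and 5 lower. Vesicle entries were above 0 for 13 of 19 and not 14, with 4 called higher and 5 lower. Scaling mattered here because run B had factors of 0.867 to 0.887 and run A 1.04 to 1.08. Without it the median over all entries was -0.25 and not -0.01, the share of calls that were higher was 18.9% and not 48.8%, and 6 members were called higher and 10 lower. Those 6 were Syt4, Syn2, Bsn, Vamp1, Syt11 and Rab3b, each also called higher with scaling. With all 6 libraries the median of the members was 0.36. It was 0.31 without either WT library, 0.28 without either S40A library and 0.45 without either GFP library. Each of these fits leaves 1 library in a virus group, so counts of calls are not compared.

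**Figure D5:**
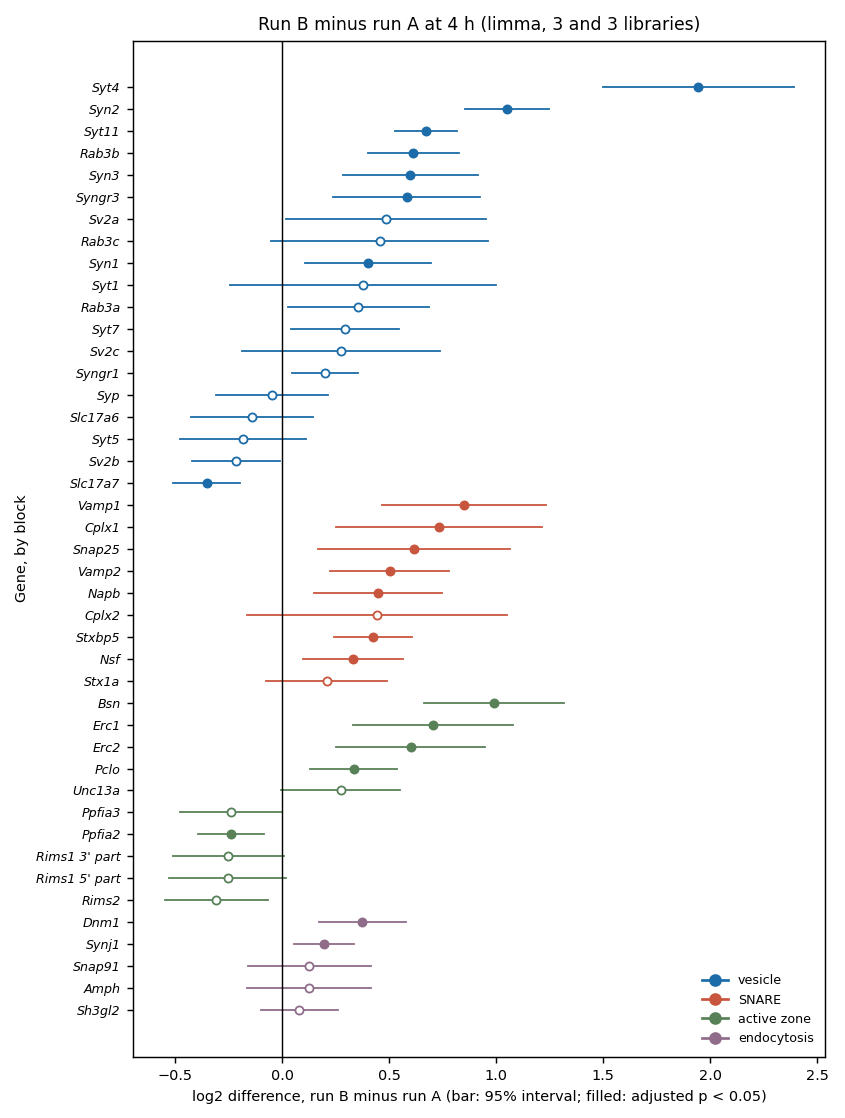
Log2 difference between run B and run A at 4 h for the 43 entries, by block, with its 95% interval from limma and filled points for an adjusted p under 0.05. The vesicle and SNARE blocks lie mostly right of 0, up to 1.94 for Syt4, and the active zone entries are spread over both sides.

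Lists of other genes were read against the same background of 41.1%. Of the other presynaptic genes 22 of 65 were called, 15 higher and 7 lower, a smaller share than that background. Among those with the smallest p values were Ap2m1 (-2.05 ± 0.09), Dnm3 (0.88 ± 0.06), Sh3gl3 (0.88 ± 0.08), Cplx3 (0.45 ± 0.05) and Unc13b (-0.64 ± 0.07). The postsynaptic density genes had 13 called higher and 1 lower of 24, and the neuron structure genes 5 higher of 15. Over all entries 20.1% were called higher and 21% lower. All 15 immediate early factors, the first genes switched on by activity, were called higher in run B, with summed levels of 778 to 1512 in run A and 4177 to 4659 in run B. Astrocyte and radial glia markers summed to 325 to 896 in run A and 283 to 403 in run B, with 2 of 11 above 0, and progenitor and cell cycle markers to 173 to 283 and 129 to 132.6, with 1 of 12 above 0. The part of these in the members' difference was not tested. What separated the runs is not stated in the labels.

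Between 8 h and 4 h, only GFP libraries allow a comparison free of a CREB virus, and time and run cannot be told apart in it. Of the list 2 of 43 were called, both lower at 8 h, against 11.7% of all entries (limma on the 22 libraries). Slc17a6 fell by 0.76 ± 0.22 (adjusted p = 0.036) and Rab3c by 0.76 ± 0.22 (adjusted p = 0.038). Rab3c was at 39.7 and 40.5 in GFP at 4 h and at 24.2, 21.4, 22.3 and 25.2 at 8 h, with no overlap. Sv2c came next (-0.79 ± 0.25, adjusted p = 0.052), and above 0 were Syt7 (0.42 ± 0.15, adjusted p = 0.090), Slc17a7 (1.25 ± 0.48, adjusted p = 0.11) and Ppfia3 (0.35 ± 0.16, adjusted p = 0.17). Groups did not overlap for 11 of 43, against 32.9% of all entries, 11 had an unadjusted p under 0.05 (27.1%), and the median was -0.07 with 17 above 0 (46.4%). Both calls lay near the threshold, and the count changed when single 8 h libraries were left out. Without replicate 3 of GFP 0 members were called, without replicate 1, 2 or 4 of GFP 1 was, and without replicate 2 of WT 4 were. The share of all entries at these settings is not reported here, so the counts cannot be read as particular to the members. Without replicate 1 or 2 of GFP at 4 h, which leaves 1 library in that group, the median was -0.17 and -0.01. Without scaling, 1 member was called higher and 2 lower, 23 were above 0, and 77% and not 58.5% of all calls were higher at 8 h. With run as a block 9 members were called, 2 higher and 7 lower (31.5% of all entries). For the following lists of markers of other cells, the summed level of every GFP library at 8 h lay below both at 4 h. Inhibitory neuron markers summed to 699 to 848 at 4 h and 349 to 683 at 8 h, with 1 of 11 called, lower. Astrocyte and radial glia markers summed to 325 to 403 and 139 to 302 (0 of 11 called, 3 above 0), and progenitor and cell cycle markers to 129 to 173 and 59.5 to 110.4 (3 of 12 called, all lower). Microglia markers summed to 23.3 to 27.6 and 10.7 to 19.1, with 1 of 4 called, lower. Oligodendrocyte lineage markers summed to 63.4 to 72.0 and 33.2 to 62.1. Their part in the members' differences was not tested. Of the other presynaptic genes 12 of 65 were called against the 11.7% over all entries, 8 higher and 4 lower at 8 h, led by Rab5a (-0.57 ± 0.13), Syt3 (0.71 ± 0.16), Rims4 (1.08 ± 0.26), Rph3a (-0.86 ± 0.21), Synpr (-1.24 ± 0.31) and Lin7b (1.59 ± 0.41).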

How the data were processed

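Gene-level FPKM values of 22 RNA-seq libraries were used as the authors deposited them, with their 95% intervals. The submitters' processing notes name CASAVA 1.7, Bowtie 0.12.2, Cufflinks and the builds mm8 and mm10, and the deposited positions fall on mm10. Strand and multi-read handling and read depth are not given in the sources used here, so depth is unknown. Each FPKM was divided by a median-of-ratios factor of its library, and log2(scaled FPKM + 1) was tested with limma 3.58.1 (R 4.3.3, trend), so fold changes of low genes are understated. Of 24490 entries, 12097 with a mean of at least 1 FPKM and no failed estimate entered the Benjamini-Hochberg adjustment, and an adjusted p under 0.05 was called. The 8 h fit held 16 libraries with terms for virus and library set, the 4 h fit 6 libraries, and the tests across times all 22. Samples were grouped by their labels. The labels do not say whether replicates are separate cultures, and a p-value then reflects only how these samples vary, possibly for technical reasons. Members and lists were chosen with earlier results of these data known. Named genes are a fixed set of 17 shown in every library, called members (the 10 smallest p at most), up to 3 members with the smallest p in each direction of a comparison, and up to 6 called other presynaptic genes, of which 1 is not reported here. Members counted at an unadjusted p under 0.05 or without overlap are named beyond that rule, after their values were seen. Alternatives were scaling, pseudocount, filter, samples in the fit, a replicate block and leaving out each library. Scripts were tested on simulated data.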

Additional observations from a re-analysis of the deposited data

Results flagged for a closer look

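In groups of 4 libraries at 8 h, 1 library lay far from the other 3 in 5 of 129 tests over 43 entries and 3 groups, where chance flags about 1 in 20. Syt1 was at 63.4 in replicate 2 of GFP against 42.4 to 44.6 in the others. Syn2 was at 30.7 in replicate 1 of GFP against 56.6 to 59.6. Nsf was at 55.2 in replicate 1 of GFP against 75.6 to 79.0. The 3′ part of Rims1 was at 21.0 in replicate 1 of WT against 17.6 to 18.2. Bsn was at 15.5 in replicate 2 of S40A against 17.6 to 18.0.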

How the results depend on the processing

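The count of called members stayed at 0 in all virus comparisons. Between runs B and A it was 8 with no filter and 0 to 29 with 1 library left out, and the median was 0.081 without scaling. For GFP at 8 h against 4 h it was 0 with no filter, 0 with only the groups compared, 9 with the replicate block and 0 to 4 with 1 library left out. Same-run libraries at 8 h deviated together in only 16 of 26 pairs (correlation over 0.1, lowest -0.041), so runs were not treated as pairs there, though 12 of 16 libraries correlated best with their own run. The runs differed in this. Correlations were -0.041 to 0.176 in C1 and C2 and 0.037 to 0.396 in D1 and D2. Every library that correlated best with another run was in C1 or C2. At 4 h all 6 same-run pairs deviated together (0.546 to 0.563). Deviations from a mean of 2 libraries mirror each other, so the values of run B repeat those of run A. For the same reason the pair of S133A and S40A-S133A at 8 h had 0.396 in both D1 and D2. Entries called for S40A against WT at 4 h went from 11 to 7 with the replicate block. With the replicate block, 11 members had an unadjusted p under 0.05 for S40A against WT at 8 h, and without scaling 2 did. Without the set term Cplx2 turned to 0.011 for S133A and 0.023 for S40A-S133A against WT. In the later set alone, chosen after the data were seen, WT against GFP gave Stxbp5 -0.015, Slc17a6 -0.015, Stx1a 0.00027 and Ppfia3 0.0064, S40A against GFP gave Ppfia3 0.026, and S40A against WT gave Cplx2 0.17. In the earlier set alone S40A against GFP gave Rims2 0.046. The cause was not tested.

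With 1 library left out at 4 h, an arm of 1 sample is assumed to vary like the others. For WT against GFP at 4 h the ranges were -0.28 to 0.43 for Syt11, -0.90 to 1.15 for Syt4, -0.38 to 0.043 for Slc17a7 and -0.59 to 0.084 for Sv2a. For S40A against GFP at 4 h they were -0.37 to 0.18 for the median, -0.13 to 0.46 for Sv2c, -0.26 to 0.45 for Syt11 and -1.05 to 1.17 for Syt4. For S40A against WT at 4 h they were -0.14 to 0.57 for Sv2a, -0.20 to 0.39 for Syn1, -0.13 to 0.22 for Rims2, -0.27 to 0.034 for Snap91 and -0.35 to 0.057 for Pclo. For the change of S40A against WT between times they were -0.014 to 0.47 for the median, -0.28 to 0.066 for Rims2 and -0.47 to 0.30 for Cplx2. For the change of WT against GFP they were -0.16 to 0.22 for the median, -0.031 to 0.62 for Cplx2, -0.0100 to 0.54 for Rab3c, -0.24 to 0.039 for Unc13a, -0.68 to 0.26 for Bsn and -0.24 to 0.040 for Stx1a. At 8 h they were -0.29 to 0.021 for Slc17a6, -0.12 to 0.070 for Ppfia3 and -0.046 to 0.014 for Rims2 (S40A against GFP), -0.13 to 0.048 for Cplx2 (S40A against WT), -0.39 to 0.064 for Cplx2 and -0.63 to 0.050 for Vamp1 (S133A against WT), and -0.37 to 0.069 for Cplx2 and -0.76 to 0.30 for Vamp1 (S40A-S133A against WT).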
